A study of Mus musculus with 9 samples.

Results

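The genes described here are 10 of the 32285 genes in the deposited count matrices and were taken by name. They are the ligands Il6, Osm, Lif and Il11, the receptor chains Il6ra, Osmr, Lifr and Il6st, the transcription factor Stat3 and the feedback inhibitor Socs3. RNA was counted in single nuclei from heart tissue of male wild-type mice, 9 to 10 weeks old, in 9 libraries, 3 in each of 3 groups. NS-Sham mice received normal saline (NS) and had the chest opened with no artery occluded. NS-I/R mice received saline and had the left anterior descending coronary artery closed for 45 min (ischemia) and open again for 24 h (reperfusion, together I/R). Enpa-I/R mice had the same ischemia and reperfusion and were injected intraperitoneally with 2 doses of 5 mg/kg enpatoran (Enpa), which blocks TLR7, a sensor of RNA. The first dose was given 1 h before ischemia, and the labels place the second either 2 h later or at the end of the ischemia. A sham group given enpatoran was not analysed here. The labels do not say whether a library holds 1 heart, so each p-value measures the spread between libraries.

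Cytokines of the interleukin-6 family share the receptor chain gp130, which Il6st encodes. Interleukin-6 first binds its own receptor chain (Il6ra), in the membrane or shed from it, while oncostatin M signals in the mouse mainly through gp130 paired with its receptor (Osmr) and leukemia inhibitory factor through gp130 paired with Lifr. The receptors activate JAK kinases and STAT3, and STAT3 induces, among other genes, Socs3, whose product binds gp130 and dampens the signal.

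The 9 libraries held 4079 to 8198 barcodes and 19.7 to 38.97 M (mega) unique molecular identifiers (UMIs, which count RNA molecules), and 41979 of 56766 barcodes were kept as nuclei. Of the nuclei kept, 463 carry a barcode that also occurs in another library. Clusters were formed without the 10 genes and the pathway lists and were named from markers, so each class is called "-like", and 1 of the 25 clusters stayed unnamed. In NS-I/R, cardiomyocyte-like nuclei were 19.1 ± 2.21% of the nuclei, endothelial-like 26.0 ± 0.334%, fibroblast-like 21.3 ± 0.600%, macrophage-like 9.08 ± 0.982% and pericyte-like 6.91 ± 0.578% (SD, n = 3). Neutrophil-like nuclei numbered 1, 2 and 2 in the sham libraries, 416, 402 and 570 in NS-I/R and 118, 157 and 58 with enpatoran. RNA of neutrophils was also counted outside that class: the sum of 8 neutrophil markers was 2.03 to 2.90 CPM (UMIs per M UMIs of the class in the library) in sham fibroblast-like nuclei, 53.6 to 161 CPM in NS-I/R and 25.5 to 33.2 CPM with enpatoran. In pericyte-like nuclei the same sum was 1.19 to 1.69, 89.6 to 426 and 29.7 to 77.3 CPM. The part of this in the results below was not tested.

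The promoters of Il6, Lif and Socs3 are shown because these 3 genes were higher after I/R and lower again with enpatoran, and because each holds a motif of a factor that acts in inflammation or in the pathway itself. The 250 bases before the start site were read from the RefSeq table (GRCm38.p6), which held promoters of 9 of the 10 genes (Osm was not among them). Capitals mark the motifs found on either strand: AP-1 (TGANTCA) and NF-kB in Il6 and Lif, and the STAT motif TTCNNNGAA in Socs3. The Il6 promoter is chr5:30012864-30013113 (plus strand), that of Lif chr11:4257318-4257567 (plus strand) and that of Socs3 chr11:117969367-117969616 (minus strand). Positions count back from the start site at -1.
Il6: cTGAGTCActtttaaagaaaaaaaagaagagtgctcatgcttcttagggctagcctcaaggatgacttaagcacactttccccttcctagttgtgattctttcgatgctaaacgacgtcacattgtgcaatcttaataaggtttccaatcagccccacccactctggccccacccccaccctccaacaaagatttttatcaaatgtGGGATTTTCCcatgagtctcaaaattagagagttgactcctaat
Lif: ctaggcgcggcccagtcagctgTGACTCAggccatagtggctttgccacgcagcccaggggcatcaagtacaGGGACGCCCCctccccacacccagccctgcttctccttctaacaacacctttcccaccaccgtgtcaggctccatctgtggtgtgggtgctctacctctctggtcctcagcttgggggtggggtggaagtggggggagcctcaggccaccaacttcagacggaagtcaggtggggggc
Socs3: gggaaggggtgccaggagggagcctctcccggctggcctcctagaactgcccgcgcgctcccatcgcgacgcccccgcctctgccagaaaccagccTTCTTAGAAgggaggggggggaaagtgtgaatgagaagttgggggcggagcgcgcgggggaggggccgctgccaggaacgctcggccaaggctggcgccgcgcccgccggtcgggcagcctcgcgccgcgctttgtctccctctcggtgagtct
In Il6 the AP-1 motif TGAGTCA begins at -249 and the NF-kB motif GGGATTTTCC at -44. In Lif the AP-1 motif TGACTCA begins at -228 and the NF-kB motif GGGACGCCCC at -178. In Socs3 the STAT motif TTCTTAGAA begins at -154, and among the 9 genes Socs3 was the only one with a STAT motif within 250 bases before or 50 bases after a listed start. Of all 32851 promoter windows of this length, 8.30% hold the STAT motif, 7.81% the AP-1 motif and 8.46% the NF-kB motif. Il6ra and Osmr were also higher after I/R and lower with enpatoran over all nuclei. The Il6ra window held none of these motifs, and the Osmr window held 1 AP-1 motif. Il11, not called with enpatoran over all nuclei, held the AP-1 motif TGAGTCA at -98 of its listed start 2. Whether the motifs go with the response was not tested. A match is a description of these letters and no site of binding, and a missing match says only that the letters are not in this window.

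In the sum over all nuclei of a library, 9 of the 10 genes were higher in NS-I/R than in NS-Sham (23.9% of all 18066 genes tested were called higher) and Lifr was lower (23.9% called lower). A call means an adjusted p under 0.05 in edgeR's quasi-likelihood test, with Benjamini-Hochberg adjustment over all genes tested in that class. Sums over all nuclei mix the level per nucleus with the share of each class, and fewer nuclei of a class and less RNA per nucleus cannot be told apart there, so the results are given by class. Of the 10 genes, 6 passed the filter on low counts in cardiomyocyte-like nuclei, where 5 were higher (background 23.7%) and 1 lower (21.7%). In endothelial-like nuclei 7 passed, with 5 higher (17.6%) and 1 lower (16.3%), and in fibroblast-like nuclei 9 passed, with 7 higher (23.3%) and 1 lower (23.3%). Of 8 in macrophage-like nuclei, 6 were higher (17.9%) and 1 lower (16.9%), and of 6 in pericyte-like nuclei 5 were higher (12.2%) and 1 lower (11.7%). In lymphatic endothelial-like nuclei 3 of 6 were higher (6.25%) and 0 lower (7.63%), and in smooth muscle-like nuclei 3 of 6 were higher (2.75%) and 0 lower (3.75%). Over the 7 classes 34 of 48 tests were called higher and 5 lower. In every case of a lower call the gene was Lifr. The genes that failed the filter were mainly ligands: Osm passed in macrophage-like nuclei only, and Lif and Il11 in fibroblast-like nuclei only.

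With enpatoran, Il6, Il6ra, Lif, Osmr and Socs3 were lower than in NS-I/R in the sum over all nuclei (8.74% of all genes were called lower) and Lifr was higher (7.75% higher). In cardiomyocyte-like nuclei Il6ra, Osmr and Socs3 were lower (background 11.3%) and Lifr was higher (7.64%). Pericyte-like nuclei had 4 lower genes, Il6, Osmr, Socs3 and Stat3 (2.83%), and 0 higher (2.57%). Fibroblast-like nuclei had 3, Il6, Lif and Socs3 (5.94% lower, 3.8% higher), and macrophage-like nuclei 3, Il6, Il6st and Socs3 (3.31% lower, 2.84% higher). Il6 and Socs3 were lower in endothelial-like nuclei (3.46% lower, 2.79% higher), and Il6 was the 1 gene of 7 called in neutrophil-like nuclei (0.659% lower, 1.08% higher), in a fit of the 6 I/R libraries. In lymphatic endothelial-like nuclei edgeR called 0 of 6 genes (0.309% lower, 0.727% higher), 1 had an unadjusted p under 0.05, and DESeq2's Wald test called 0 of the 3 to which it gave an adjusted p. In smooth muscle-like nuclei edgeR called 0 of 6 (0.0% lower, 0.0% higher), where 5 of the 6 and 782 of all 6593 genes had an unadjusted p under 0.05 and DESeq2's Wald test called 1, Osmr. Over the 7 classes 15 of 48 tests were called lower and 1 higher. Both contrasts use the same NS-I/R libraries, so a low NS-I/R value moves both.

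The enpatoran calls rested on few libraries. Of the 16 calls by class, 5 held in each of the 9 fits that left out 1 library: Il6 in endothelial-, macrophage- and pericyte-like nuclei and Il6st and Socs3 in macrophage-like nuclei. Without NS-I/R replicate 3 all 16 were kept and 35 tests in all were called. Of the 16, 5 were kept without NS-I/R replicate 1, 5 without NS-I/R replicate 2, and 6, 6 and 5 without enpatoran replicates 1, 2 and 3. NS-I/R replicate 3 had the lowest Il6, Lif and Socs3 of the 3 NS-I/R libraries in fibroblast-like nuclei, so that it lay nearest to the enpatoran group for them. Of the 39 calls between NS-I/R and NS-Sham, 30 held in all 9 such fits.

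**Figure D1:**
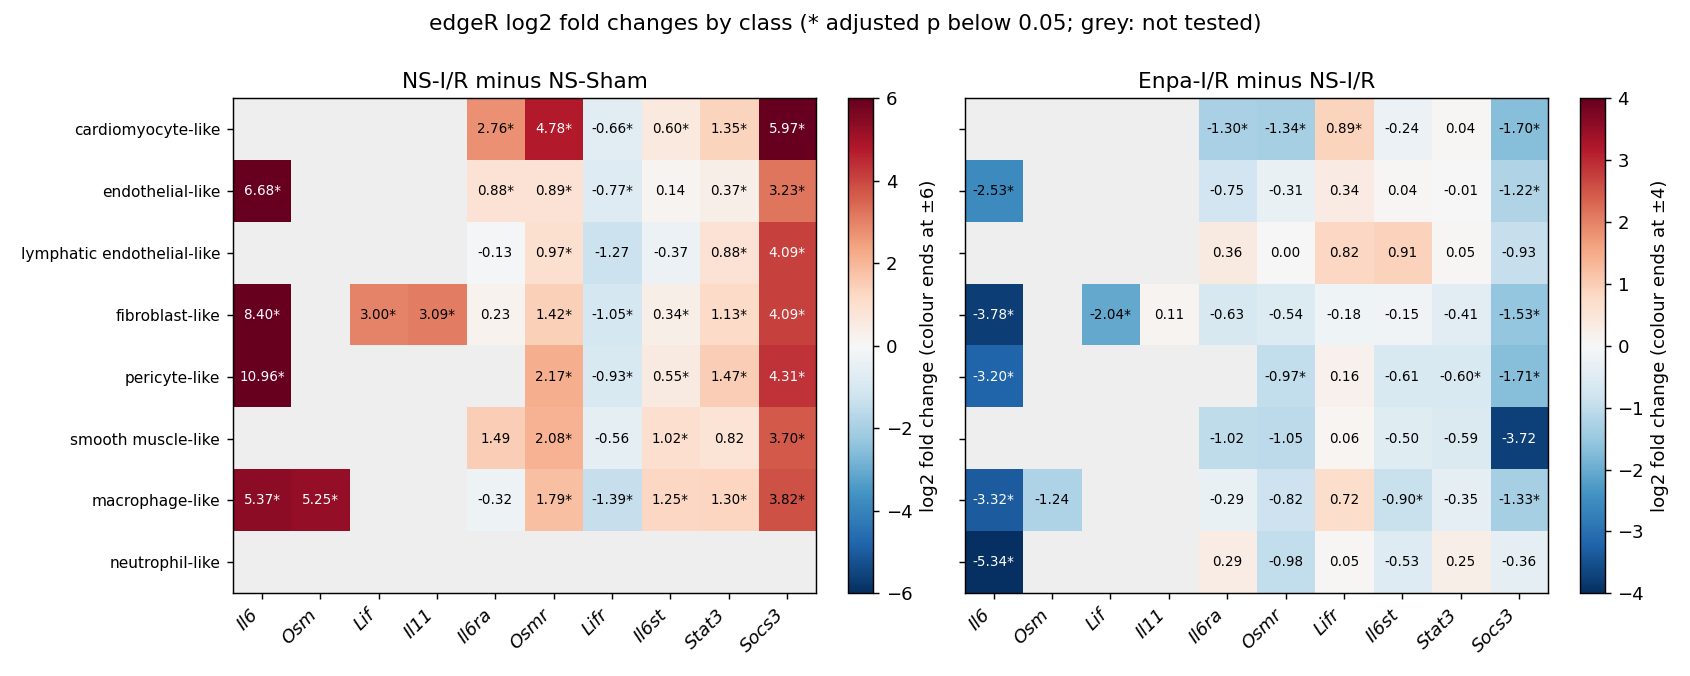
Log2 fold changes from edgeR by cell class (rows) and gene (columns), for NS-I/R against NS-Sham (left) and Enpa-I/R against NS-I/R (right). An asterisk marks an adjusted p under 0.05 and grey an untested gene; Socs3 carried a call in all 7 classes on the left, from 3.23 in endothelial-like to 5.97 in cardiomyocyte-like nuclei, and Lifr was the only gene with calls below 0 there.

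Il6, the ligand that names the family, went from almost no RNA in sham hearts to its highest level relative to depth in pericyte-like nuclei. In these the 3 sham libraries held 0 UMIs, the NS-I/R libraries 447, 308 and 119 CPM (364, 251 and 111 UMIs) and the enpatoran libraries 20.1, 41.4 and 28.6 CPM (20, 30 and 26 UMIs). The 3 groups did not overlap. The summed level in NS-I/R was at least 289-fold higher than in sham, taking 3 counts over the sham group as the floor, and edgeR's fold change against such a group depends on its prior count (10.96 ± 0.89, adjusted p = 1.34e-06). With enpatoran Il6 fell by 3.20 on the log2 scale in pericyte-like nuclei (SE 0.40, edgeR adjusted p = 0.00153).

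In fibroblast-like nuclei, the class with most Il6 UMIs, Il6 was 0, 0.185 and 0.966 CPM in the sham libraries, 266, 92.9 and 10.7 in the NS-I/R libraries and 4.17, 4.31 and 18.6 with enpatoran. NS-I/R replicate 3 lay far below the other NS-I/R libraries and below enpatoran replicate 3, so these groups overlapped. The summed level in NS-I/R was 384-fold (95% exact interval 131 to 1866) that in sham, where the 3 libraries held 3 UMIs together. Il6 was lower with enpatoran by the edgeR fit (log2 fold change -3.78 ± 0.91, adjusted p = 0.0280). That call was lost without NS-I/R replicate 1, NS-I/R replicate 2 or any of the 3 enpatoran libraries, with adjusted p up to 0.111.

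Macrophage-like nuclei held 3.14, 0 and 0 CPM of Il6 in sham, 66.1, 46.6 and 27.4 in the NS-I/R libraries and 5.27, 3.08 and 5.61 with enpatoran. Endothelial-like nuclei held 0.772, 0 and 0 CPM in sham, 38.8, 28.5 and 13.2 in the NS-I/R libraries and 4.78, 4.49 and 4.08 with enpatoran. In both classes each NS-I/R library was above every library of the other groups. The rise over sham was 48.4-fold (95% exact interval 13.2 to 403) in macrophage-like and 129.8-fold (95% exact interval 35.5 to 1078) in endothelial-like nuclei, from 2 sham UMIs in each. The change with enpatoran was -3.32 ± 0.46, adjusted p = 0.00111 and -2.53 ± 0.42, adjusted p = 0.00883 on edgeR's log2 scale. Smooth muscle-like nuclei, where Il6 failed the filter, held 0 UMIs in sham, 22, 16 and 7 in the NS-I/R libraries and 0, 2 and 0 with enpatoran, so the NS-I/R level was at least 12.8-fold higher than sham and 23.9-fold (95% exact interval 6.25 to 204) that with enpatoran.

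Neutrophil-like nuclei held 94.4, 168 and 25.3 CPM of Il6 in NS-I/R (63, 97 and 30 UMIs) and 0, 3.88 and 0 CPM with enpatoran, where 1 UMI was counted in 333 nuclei. The summed ratio was 37.8-fold (95% exact interval 6.70 to 1500.4), and edgeR gave -5.34 ± 1.19, adjusted p = 0.0387. A single nucleus held 53 of the 190 NS-I/R UMIs and 6 nuclei held 57.9%. Of the fits that left out 1 library, 4 gave a value for Il6 in this class and 1 of them called it, the one without NS-I/R replicate 3. The call was lost without any 1 of the 3 enpatoran libraries (adjusted p up to 0.228), and Il6 no longer passed the filter without NS-I/R replicate 1 or 2.

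Il6 was carried by few nuclei in each class. In NS-I/R 14.9 ± 5.22% of pericyte-like nuclei had at least 1 Il6 UMI (10.4 ± 4.53% after thinning to 1000 UMIs per nucleus). Nuclei with fewer than 1000 UMIs were left out of all thinned shares. Of the 726 Il6 UMIs in pericyte-like nuclei, 74.1% lay in 47 nuclei with 5 or more UMIs. Among fibroblast-like nuclei 12.4 ± 10.1% had a UMI (6.51 ± 5.95% thinned), and 85 nuclei held 65.3% of the 1445 UMIs, with up to 43 in 1 nucleus. Cardiomyocyte-like nuclei, taken as a class that should lack the ligand, had a UMI in 3.00 ± 2.20% of nuclei unthinned and in 0.689 ± 0.451% thinned, with at most 4 in 1 nucleus. The median depth of cardiomyocyte-like nuclei was 6455.0 to 10594.0 UMIs by library, against 1950.0 to 2756.0 in pericyte-like and 2642.5 to 4438.0 in fibroblast-like nuclei. The thinned share was thus lower in cardiomyocyte-like nuclei than in macrophage-like (4.81 ± 2.59%), neutrophil-like (3.93 ± 2.77%) and endothelial-like nuclei (2.52 ± 0.976%). Neutrophil-like nuclei had a median of 1116.5 UMIs over all libraries, so their thinned share covers only the deeper nuclei of the class. Intervals and floors here cover counting error only.

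**Figure D2:**
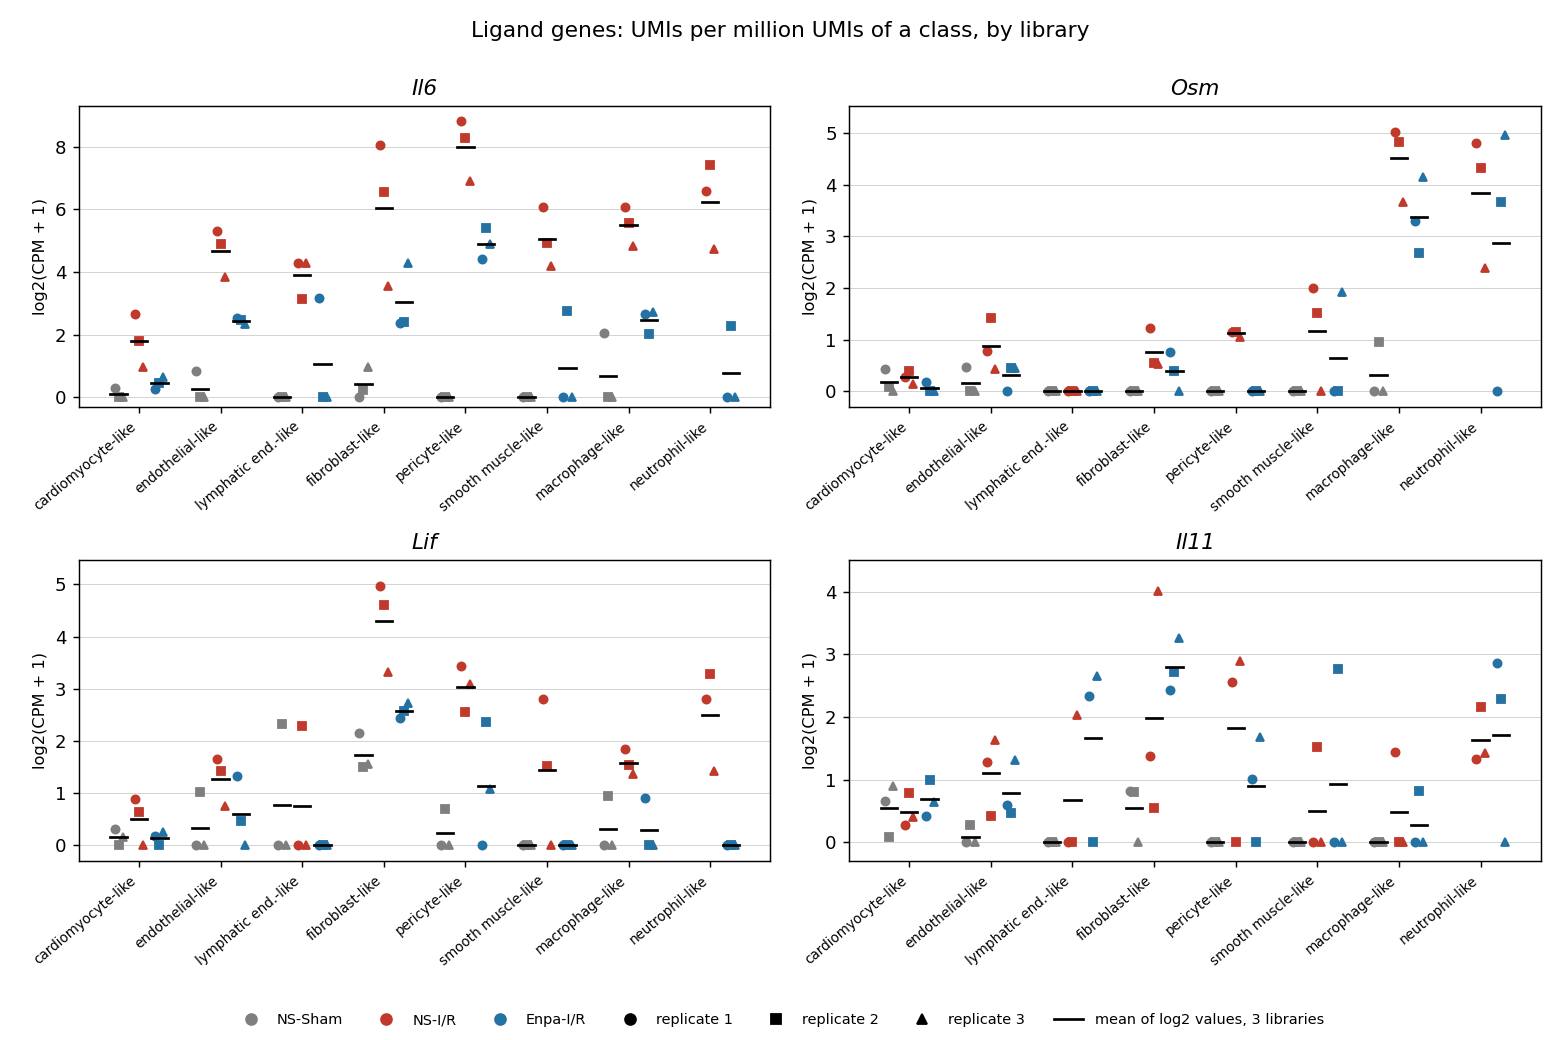
Levels of the 4 ligand genes as log2(CPM + 1), by class and library. Colours give the group, symbols the replicate number and bars the mean of the log2 values of 3 libraries; sham neutrophil-like nuclei (5 in all) are left out, and the sham points of Il6 lie at or below 1 CPM except for NS-Sham replicate 1 in macrophage-like nuclei, while the mean of NS-I/R is highest in pericyte-like nuclei.

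By UMIs rather than by level, fibroblast-like nuclei were the main source of Il6 in NS-I/R. They held 48.8% (95% exact binomial interval 47.0 to 50.6%) of the 2963 UMIs, at 21.3% of the nuclei, and pericyte-like nuclei 24.5% (95% exact binomial interval 23.0 to 26.1%), at 6.92% of the nuclei. The shares differed between libraries: fibroblast-like nuclei held 57.8, 42.4 and 16.7% in NS-I/R replicates 1 to 3, and pericyte-like nuclei 21.2, 26.3 and 37.9%. In replicate 3 the pericyte-like share was thus the larger. Endothelial-like nuclei held 7.80% in the group, neutrophil-like 6.41% and macrophage-like 5.43%. With enpatoran 245 Il6 UMIs were left in 13391 nuclei, of which 38.8% lay in fibroblast-like, 31.0% in pericyte-like and 17.1% in endothelial-like nuclei.

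Within the fibroblast-like class Il6 lay in 1 cluster, led by Tnc and Adam12. That cluster made up 0.145% of fibroblast-like nuclei in sham, 56.5% in NS-I/R and 28.1% with enpatoran, so values within the class compare groups with different clusters. It held 1404 of the 1445 Il6 UMIs in NS-I/R, at 193 ± 209.7 CPM, against 10.1 CPM in the cluster that made up 93.1% of the class in sham. In Enpa-I/R its level was 23.0 ± 22.9 CPM. Endothelial-like cluster 4, 2.31% of its class in sham and 40.7% in NS-I/R, held Il6 at 51.9 ± 32.4 CPM in NS-I/R, against 6.39 CPM in cluster 3, the largest of that class in sham. Clusters were formed from all nuclei together and were not tested against each other.

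Osm, which encodes oncostatin M, a product of activated leukocytes, was counted mainly in macrophage-like nuclei. These held 0, 0.934 and 0 CPM in sham, 31.8, 27.6 and 11.7 in NS-I/R (37, 29 and 15 UMIs) and 8.78, 5.40 and 16.8 with enpatoran (10, 7 and 15 UMIs). All NS-I/R libraries lay above sham, by 48.7-fold (95% exact interval 8.49 to 1945) in the sums against 1 sham UMI, and edgeR called the rise (5.25 ± 0.88, adjusted p = 0.000296). NS-I/R and Enpa-I/R overlapped, and the difference of -1.24 ± 0.46 was not called (adjusted p = 0.122). Without NS-I/R replicate 3 that difference was called, at an adjusted p of 0.0106. Neutrophil-like nuclei held 27.0, 19.1 and 4.22 CPM in NS-I/R and 0, 11.7 and 30.1 CPM with enpatoran, the last from 2 UMIs, and Osm failed the filter there. Of the 148 Osm UMIs in NS-I/R, macrophage-like nuclei held 54.7% (95% exact binomial interval 46.3 to 62.9%) and neutrophil-like nuclei 23.0% (95% exact binomial interval 16.5 to 30.6%), and no nucleus held more than 2.

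Lif, which encodes leukemia inhibitory factor, passed the filter in fibroblast-like nuclei only. Their libraries held 3.43, 1.85 and 1.93 CPM in sham, 30.3, 23.5 and 8.93 in the NS-I/R libraries and 4.40, 4.92 and 5.62 with enpatoran. Every NS-I/R library was above every library of the other groups. Lif rose by 3.00 ± 0.48, adjusted p = 0.000373 on edgeR's log2 scale after I/R and with enpatoran differed by -2.04 ± 0.41, adjusted p = 0.0183, a call lost without NS-I/R replicates 1 or 2 or any enpatoran library (adjusted p up to 0.0762). Fibroblast-like nuclei held 74.2% (95% exact binomial interval 69.2 to 78.7%) of the 345 Lif UMIs in NS-I/R and 76.1% of the 71 with enpatoran. As with Il6, 248 of their 256 UMIs in NS-I/R lay in the cluster led by Tnc, at 32.9 ± 16.9 CPM, and its level with enpatoran was 10.1 ± 2.06 CPM.

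Il11 encodes interleukin-11, a ligand known for its action on cardiac fibroblasts, and its level overlapped between the I/R groups. Fibroblast-like nuclei held 0.763, 0.738 and 0 CPM in sham, 1.61, 0.460 and 15.03 in NS-I/R (6, 2 and 69 UMIs) and 4.40, 5.54 and 8.58 with enpatoran. NS-I/R replicate 3, the lowest library for Il6 and Lif, was the highest for Il11, and replicate 2 lay within the sham range. The call against sham (3.09 ± 1.17, adjusted p = 0.0462) was lost in 7 of the 9 fits that left out 1 library, that is without any of the 3 sham or 3 enpatoran libraries or without NS-I/R replicate 3, where the fold change was 0.60 with an adjusted p of 0.577. With enpatoran the difference was 0.11 ± 0.80, adjusted p = 0.943, and its sign turned in 3 of the fits that left out a library, while without NS-I/R replicate 3 it was called at 2.59 (adjusted p = 0.00342). In NS-I/R 4 nuclei held 46.8% of the 77 UMIs in the class.

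**Figure D3:**
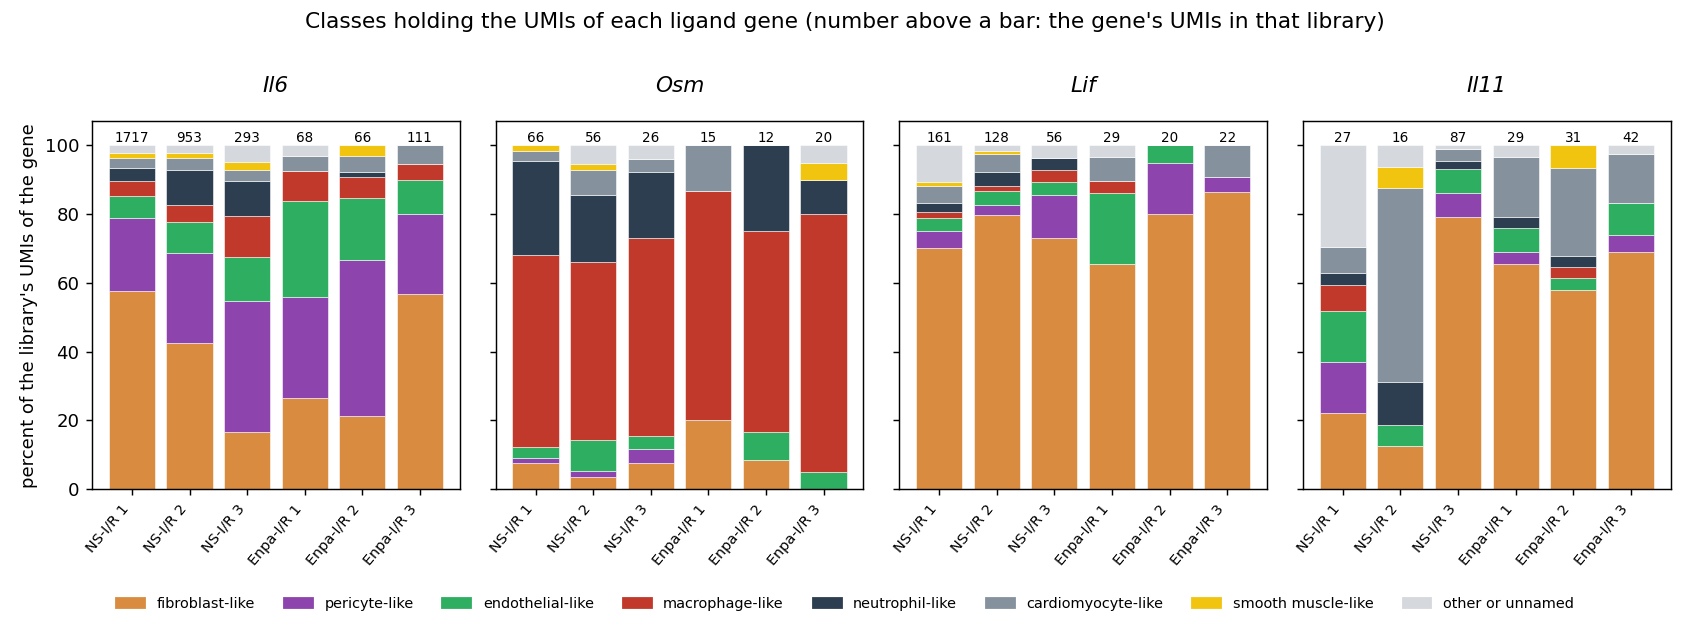
Share of each library's UMIs of Il6, Osm, Lif and Il11 (vertical axis, percent) held by each cell class, for the 6 I/R libraries, with the gene's UMIs above each bar. Fibroblast-like nuclei held 57.8, 42.4 and 16.7% of Il6 in NS-I/R replicates 1 to 3, and macrophage-like nuclei held the largest share of Osm in each of the 6 libraries.

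Osmr, the oncostatin M receptor chain, was the receptor gene that rose most and in every class tested. In cardiomyocyte-like nuclei it was 7.26, 5.40 and 9.16 CPM in sham, 251, 252 and 85.5 in the NS-I/R libraries and 78.2, 70.2 and 78.7 with enpatoran. All I/R libraries lay above sham, and all NS-I/R above all enpatoran libraries, with NS-I/R replicate 3 close to the enpatoran group. The rise was 4.78 ± 0.41, adjusted p = 3e-05 on edgeR's log2 scale and the difference with enpatoran -1.34 ± 0.35, adjusted p = 0.0289. The second call was lost without NS-I/R replicate 1 or 2 or any enpatoran library (adjusted p up to 0.109).

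Osmr had its highest mean level of NS-I/R in pericyte-like nuclei, where it was 169.7, 140.4 and 109.7 CPM in sham, 937, 721 and 467 in the NS-I/R libraries and 369, 342 and 301 with enpatoran. Fibroblast-like nuclei held 197, 207 and 204 CPM in sham, 724, 649 and 437 in the NS-I/R libraries and 442, 393 and 389.9 with enpatoran, and endothelial-like nuclei 193, 183 and 202 CPM in sham, 415, 424 and 289.97 in the NS-I/R libraries and 339, 286 and 259 with enpatoran. In pericyte-like nuclei no 2 groups overlapped, while in the other 2 classes sham lay below both I/R groups and these overlapped. The rise over sham was 2.17 ± 0.21 in pericyte-like, 2.08 ± 0.28 in smooth muscle-like, 1.79 ± 0.33 in macrophage-like, 1.42 ± 0.17 in fibroblast-like, 0.97 ± 0.26 in lymphatic endothelial-like and 0.89 ± 0.15 in endothelial-like nuclei (log2 ± SE, edgeR adjusted p from 3.02e-06 to 0.0131). The lymphatic call was lost without NS-Sham replicate 1, NS-Sham replicate 2 or NS-I/R replicate 1. With enpatoran Osmr was lower in pericyte-like nuclei (-0.97 ± 0.20, adjusted p = 0.0147), a call lost without NS-I/R replicate 1 or 2 or any enpatoran library. It was not called in fibroblast-like (-0.54 ± 0.16, adjusted p = 0.0554), macrophage-like (-0.82 ± 0.27, adjusted p = 0.0834) or endothelial-like nuclei (-0.31 ± 0.15, adjusted p = 0.204), although without NS-I/R replicate 3 each of these was called. In sham the 3 highest classes, fibroblast-, endothelial- and lymphatic endothelial-like, overlapped their neighbours in rank. In NS-I/R the first 4 by mean were pericyte-like (708 ± 235 CPM), fibroblast-like (603 ± 149), epicardial-like (50 nuclei) and smooth muscle-like nuclei (481 ± 173), and each overlapped the next. With enpatoran the order was fibroblast-like (408 ± 29.5 CPM), lymphatic endothelial-like (377 ± 58.6) and pericyte-like nuclei (337 ± 34.5), again with overlaps.

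The rise of Osmr in cardiomyocyte-like nuclei was larger than in fibroblast-like nuclei (difference of log2 fold change 3.20 ± 0.28, limma adjusted p = 0.000370) and larger than in endothelial-like nuclei (3.72 ± 0.30, limma adjusted p = 0.000394). This test took the difference of log2 CPM between 2 classes within each library and was run for 4 pairs of classes and both contrasts. Of all genes in the comparison with NS-Sham, 22.7% differed between cardiomyocyte- and fibroblast-like nuclei and 16.7% between cardiomyocyte- and endothelial-like nuclei, in either direction. Osmr also rose more in pericyte- than in fibroblast-like nuclei (0.75 ± 0.19, limma adjusted p = 0.0418, background 8.95%), a call kept in 1 of 9 fits, that without NS-Sham replicate 1. Over the 4 pairs 9 of 25 tests of the 10 genes were called for that comparison. For enpatoran against NS-I/R limma called 0 of 25, 6 had an unadjusted p under 0.05, and no other tool was run. The background there was 0.0571% for cardiomyocyte- against fibroblast-like, 0.585% for cardiomyocyte- against endothelial-like, 0.0% for pericyte- against fibroblast-like (1080 of 9252 genes had an unadjusted p under 0.05) and 0.0% for macrophage- against fibroblast-like nuclei (1185 of 9904). Sham cardiomyocyte-like nuclei started from less than 10 CPM of Osmr, and class and starting level cannot be told apart here.

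Within cardiomyocyte-like nuclei the mean Osmr level differed between clusters. Cluster 17, led by Xirp2, made up 0.182% of the class in sham, 51.1% in NS-I/R and 21.7% with enpatoran, and held Osmr at 280 ± 112 CPM in NS-I/R and 170.4 ± 14.9 CPM with enpatoran. In cluster 1, 70.2% of the class in sham, Osmr was 6.36 ± 1.54 CPM in sham, 34.1 ± 20.7 in the NS-I/R libraries and 20.4 ± 4.25 with enpatoran. In cluster 0 it was 9.68 ± 2.59, 93.6 ± 52.8 and 38.0 ± 23.3 CPM in the 3 groups, and in cluster 2 14.2 ± 11.4, 83.9 ± 37.7 and 77.0 ± 10.5 CPM. These are values with no test, and the part of the cluster shares in the rise was not tested.

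Il6ra, the interleukin-6 receptor chain, was highest in leukocytes and changed in few classes. Macrophage-like nuclei held 661, 514 and 489 CPM in sham, 494, 540.4 and 362 in the NS-I/R libraries and 365, 390.2 and 381 with enpatoran, with no call. Neutrophil-like nuclei held 363 ± 44.7 CPM in NS-I/R and 452 ± 66.4 with enpatoran (SD, n = 3), and fibroblast-like nuclei 127 ± 10.4, 166 ± 64.1 and 106 ± 5.87 CPM in the 3 groups. In sham macrophage-like nuclei lay above every other class with no overlap, and after I/R they overlapped neutrophil-like nuclei.

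Il6ra rose in cardiomyocyte-like nuclei, from 1.99, 1.48 and 0.619 CPM in sham to 12.9, 9.79 and 5.68 in NS-I/R, and was 4.39, 4.46 and 2.44 with enpatoran. The sham and NS-I/R libraries did not overlap, nor did NS-I/R and Enpa-I/R. edgeR gave 2.76 ± 0.43, adjusted p = 0.000662 after I/R and -1.30 ± 0.38, adjusted p = 0.0405 with enpatoran. The enpatoran call was kept in 2 of 9 fits that left out a library, those without NS-Sham replicate 3 or NS-I/R replicate 3. The rise was larger than in fibroblast-like (2.53 ± 0.34, limma adjusted p = 0.00177) and endothelial-like nuclei (1.82 ± 0.34, limma adjusted p = 0.00819), where it was 0.88 ± 0.24, adjusted p = 0.0120 and was lost without NS-I/R replicate 1. The gene Gm42809 overlaps Il6ra on the opposite strand in GENCODE M21, and how reads in the overlap were assigned was not tested. A part of free RNA from other cells in these low levels was not tested.

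Lifr, the receptor chain for leukemia inhibitory factor, was the only one of the 10 genes called lower after I/R. Macrophage-like nuclei held 520.01, 902 and 566 CPM in sham, 295, 198 and 305 in the NS-I/R libraries and 475, 463 and 372 with enpatoran. Sham and NS-I/R did not overlap, and the NS-I/R libraries lay below the enpatoran libraries. The fall was -1.39 ± 0.21, adjusted p = 0.000154, and the difference with enpatoran (0.72 ± 0.21, adjusted p = 0.0579) was not called by edgeR, although DESeq2's Wald test called it and edgeR called it without NS-Sham replicate 2 or NS-I/R replicate 3. Fibroblast-like nuclei held 131, 177 and 138 CPM in sham, 101, 78.2 and 61.7 in the NS-I/R libraries and 77.6, 80.0 and 51.5 with enpatoran, with a fall of -1.05 ± 0.21, adjusted p = 0.00168 after I/R and enpatoran libraries within or below the NS-I/R range. Lifr also fell in pericyte-like (-0.93 ± 0.20, adjusted p = 0.00315) and endothelial-like nuclei (-0.77 ± 0.15, adjusted p = 0.00211).

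In cardiomyocyte-like nuclei Lifr was 109, 101 and 81.8 CPM in sham, 59.9, 55.4 and 69.5 in the NS-I/R libraries and 104, 87.3 and 140.2 with enpatoran. NS-I/R lay below both other groups, which overlapped. It was the only gene called higher with enpatoran in any class (0.89 ± 0.20, adjusted p = 0.0190), after a fall of -0.66 ± 0.20, adjusted p = 0.0196 in NS-I/R against sham. The first call was lost without NS-I/R replicate 1 or 2 or enpatoran replicate 1 or 3, and the second without NS-Sham replicate 1 or 2 or NS-I/R replicate 1 or 2. By cluster, Lifr in NS-I/R was 27.2 ± 1.66 CPM in cluster 17 and 152 ± 23.5 CPM in cluster 1. Sham was 97.8 ± 11.7 CPM in cluster 1, so the level in the main sham cluster was not lower in NS-I/R. Cluster 1 was small in NS-I/R, with 14, 37 and 150 nuclei in replicates 1 to 3, 6.85% of the class against 70.2% in sham. In fibroblast-like nuclei Lifr was likewise 31.1 CPM in the Tnc cluster and 172 CPM in the main sham cluster in NS-I/R (sham 153 CPM). In macrophage-like nuclei it was 77.5 CPM in cluster 14, led by Arg1, and 504 CPM in cluster 12, with 701 CPM in cluster 12 in sham. The shares of these clusters differ between groups, and their part in the fall of Lifr was not tested.

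Il6st, the gp130 chain shared by the family, changed less. In macrophage-like nuclei it was 129, 91.5 and 84.5 CPM in sham, 218, 264 and 279.5 in the NS-I/R libraries and 139, 143 and 123 with enpatoran. NS-I/R was above both other groups in every library, with a rise of 1.25 ± 0.18, adjusted p = 8.17e-05 and a change of -0.90 ± 0.17, adjusted p = 0.00604 with enpatoran on edgeR's log2 scale. The rise was larger than in fibroblast-like nuclei (0.93 ± 0.23, limma adjusted p = 0.0246, background 14.4%), a call lost without NS-Sham replicate 2 or 3 or NS-I/R replicate 2 or 3. In NS-I/R the Arg1-led cluster 14, 6.92% of the class in sham, 52.3% in NS-I/R and 37.9% with enpatoran, held 365 ± 23.8 CPM, and with enpatoran 215 ± 20.3 CPM.

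Il6st also rose in smooth muscle-like (1.02 ± 0.23, adjusted p = 0.0170), cardiomyocyte-like (0.60 ± 0.14, adjusted p = 0.00601), pericyte-like (0.55 ± 0.18, adjusted p = 0.0317) and fibroblast-like nuclei (0.34 ± 0.12, adjusted p = 0.0318). The smooth muscle-like call was lost without NS-Sham replicate 1 or 2 or NS-I/R replicate 2. The pericyte-like call was lost without NS-Sham replicate 1 or 2 or NS-I/R replicate 1 or 2, and the fibroblast-like call in 6 of 9 fits: without any sham library, NS-I/R replicate 1 or 2, or enpatoran replicate 1. Cardiomyocyte-like nuclei held 59.1, 59.1 and 57.9 CPM in sham and 98.6, 94.1 and 74.7 in NS-I/R, which did not overlap. In sham its level was 194 ± 19.2 CPM in lymphatic endothelial-like, 176 ± 3.30 in fibroblast-like and 169.8 ± 12.1 in endothelial-like nuclei, whose libraries overlapped, and 102 ± 23.8 in macrophage-like nuclei, which lay below them. Endothelial-like nuclei held 198 ± 59.0 CPM in NS-I/R and 197 ± 45.5 with enpatoran, with no call in either contrast.

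**Figure D4:**
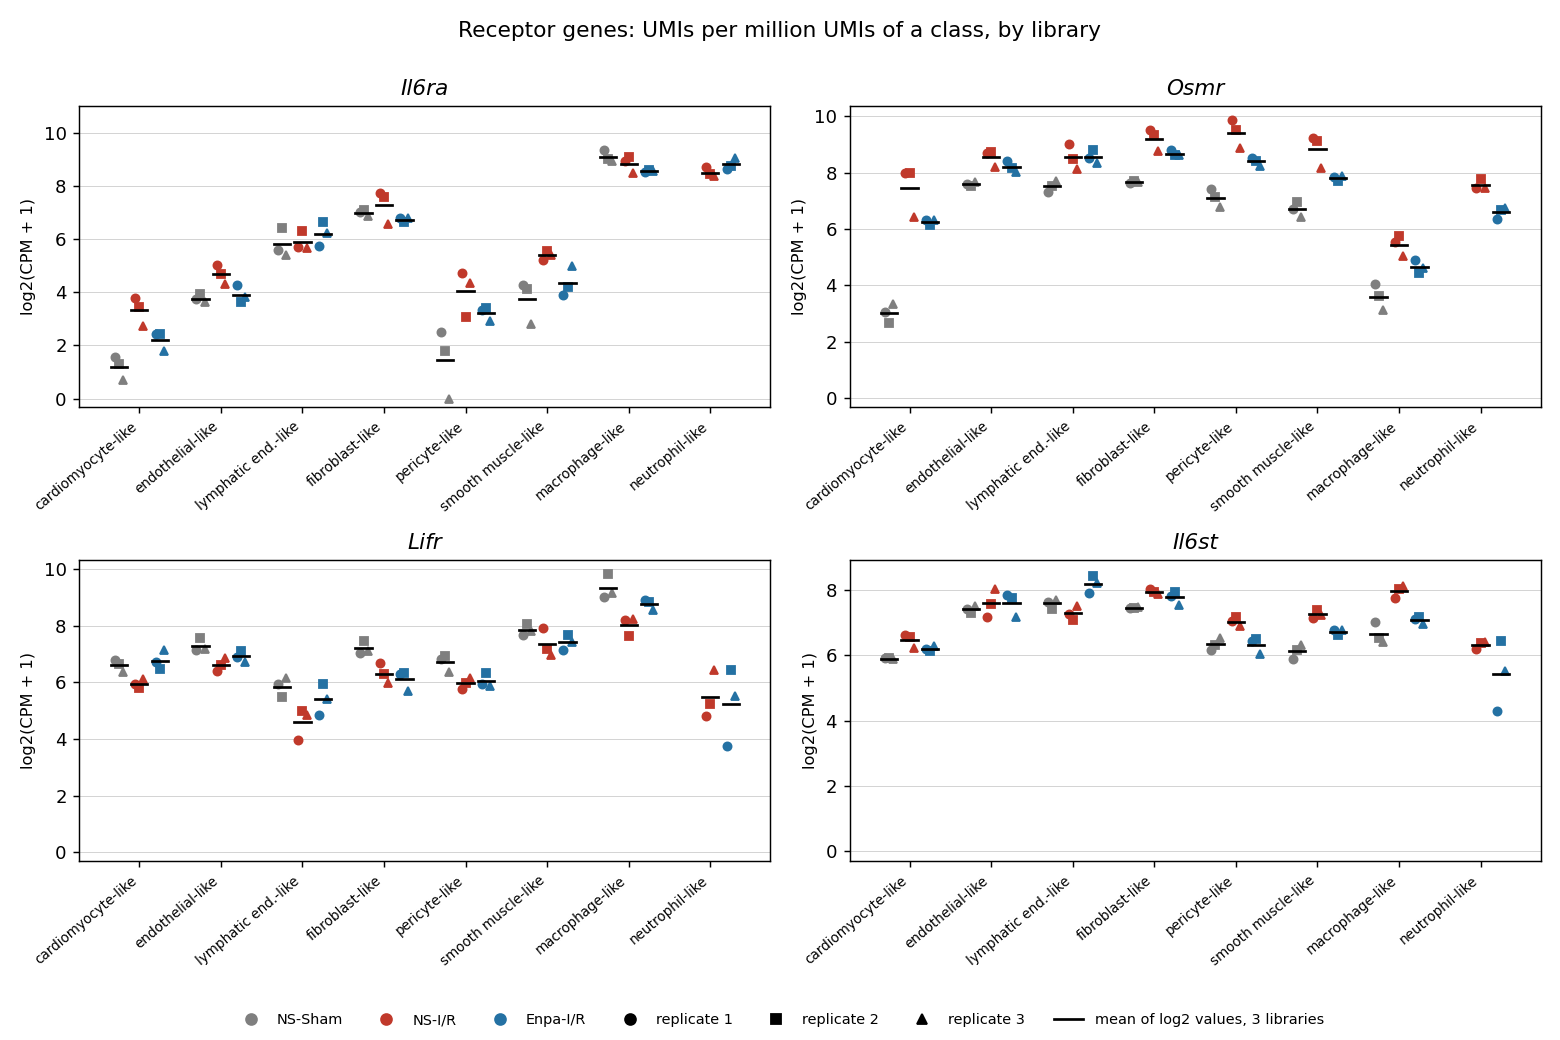
Levels of the 4 receptor genes as log2(CPM + 1), by class and library, drawn as for the ligands. Osmr in cardiomyocyte-like nuclei rises from under 10 CPM in sham to between 85.5 and 252 CPM in NS-I/R, while Lifr in macrophage-like nuclei is lowest in NS-I/R.

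Stat3, the transcription factor that the receptors activate, was called higher after I/R in 6 of the 7 classes. In pericyte-like nuclei it was 182, 157 and 174 CPM in sham, 659, 529 and 395 in the NS-I/R libraries and 328, 334 and 313 with enpatoran, with no overlap between any 2 groups. Fibroblast-like nuclei held 248, 248 and 231 CPM in sham, 691, 632 and 442 in the NS-I/R libraries and 448, 423 and 440.2 with enpatoran. NS-I/R replicate 3 lay within the enpatoran range there, and all I/R libraries lay above sham. The rise was 1.47 ± 0.17 in pericyte-like, 1.35 ± 0.30 in cardiomyocyte-like, 1.30 ± 0.19 in macrophage-like, 1.13 ± 0.15 in fibroblast-like, 0.88 ± 0.23 in lymphatic endothelial-like and 0.37 ± 0.12 in endothelial-like nuclei (log2 ± SE, edgeR adjusted p from 1.05e-05 to 0.0359). The endothelial-like call was kept in 1 of 9 fits, the one without NS-I/R replicate 3, and the lymphatic call was lost without NS-Sham replicate 1 or 2 or NS-I/R replicate 1. Smooth muscle-like nuclei were not called (0.82 ± 0.26, adjusted p = 0.0833).

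The rise of Stat3 was larger in cardiomyocyte- than in endothelial-like nuclei (0.99 ± 0.27, limma adjusted p = 0.0357), a call lost without NS-Sham replicate 2 or 3, NS-I/R replicate 1 or 2, or enpatoran replicate 1. With enpatoran it was lower in pericyte-like nuclei (-0.60 ± 0.16, adjusted p = 0.0377), a call kept only without NS-I/R replicate 3 among the 9 fits, and it was not called in fibroblast-like (-0.41 ± 0.15, adjusted p = 0.0978) or macrophage-like nuclei (-0.35 ± 0.18, adjusted p = 0.278), except without that library. In cardiomyocyte-like nuclei enpatoran replicate 3 had the highest Stat3 of all 9 libraries, 563, 495 and 306 CPM standing in NS-I/R against 433, 340 and 583 with enpatoran. Stat5a overlaps Stat3 on the opposite strand, and how reads in the overlap were assigned was not tested.

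Socs3, the feedback inhibitor that STAT3 induces, rose in all 7 classes. In cardiomyocyte-like nuclei it was 0.117, 0.475 and 0.248 CPM in sham, 27.0, 25.1 and 10.6 in the NS-I/R libraries and 8.50, 6.07 and 4.22 with enpatoran. Fibroblast-like nuclei held 2.67, 2.95 and 5.80 CPM in sham, 86.2, 78.0 and 37.7 in the NS-I/R libraries and 31.1, 18.8 and 18.3 with enpatoran, and macrophage-like nuclei 9.43, 7.47 and 2.56 CPM in sham, 122, 101 and 95.5 in the NS-I/R libraries and 55.3, 36.2 and 34.8 with enpatoran. In each of these 3 classes the 3 groups did not overlap: sham was lowest, Enpa-I/R between and NS-I/R highest. The shares of cardiomyocyte-like cluster 17, the Tnc cluster and macrophage-like cluster 14 in their classes had the same order of groups. Their part in the changes of Socs3 and Stat3 was not tested.

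On edgeR's log2 scale Socs3 rose by 5.97 ± 0.54, adjusted p = 3.97e-05 in cardiomyocyte-like nuclei, and by 4.31 ± 0.52 in pericyte-like, 4.09 ± 0.83 in lymphatic endothelial-like, 4.09 ± 0.41 in fibroblast-like, 3.82 ± 0.32 in macrophage-like, 3.70 ± 0.71 in smooth muscle-like and 3.23 ± 0.37 in endothelial-like nuclei. All 7 rises were called in each of the 9 fits that left out 1 library. The rise in cardiomyocyte-like nuclei was larger than in fibroblast-like (1.65 ± 0.33, limma adjusted p = 0.00909) and endothelial-like nuclei (2.32 ± 0.34, limma adjusted p = 0.00313).

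With enpatoran Socs3 was lower in pericyte-like (-1.71 ± 0.38, adjusted p = 0.0194), cardiomyocyte-like (-1.70 ± 0.38, adjusted p = 0.0190), fibroblast-like (-1.53 ± 0.31, adjusted p = 0.0183), macrophage-like (-1.33 ± 0.22, adjusted p = 0.00343) and endothelial-like nuclei (-1.22 ± 0.31, adjusted p = 0.0386). The call in macrophage-like nuclei held in all 9 fits that left out a library. NS-I/R replicate 1 or 2 or enpatoran replicate 3 or 2 each ended the calls in the other 4 classes, as did enpatoran replicate 1 in pericyte-, fibroblast- and endothelial-like nuclei and NS-Sham replicate 2 in endothelial-like nuclei. Smooth muscle-like nuclei held 0, 6.11 and 3.04 CPM in sham, 77.9, 51.9 and 34.5 in the NS-I/R libraries and 3.06, 8.69 and 0 with enpatoran, with no overlap of the I/R groups, and the difference was not called (-3.72 ± 0.67, adjusted p = 0.0894). Without NS-I/R replicate 3 it was called. Neutrophil-like nuclei had the highest mean Socs3 level in both I/R groups, 243, 239 and 153 CPM in NS-I/R and 213, 163 and 90.4 with enpatoran, which overlapped and were not called different (-0.36 ± 0.32, adjusted p = 0.600).

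**Figure D5:**
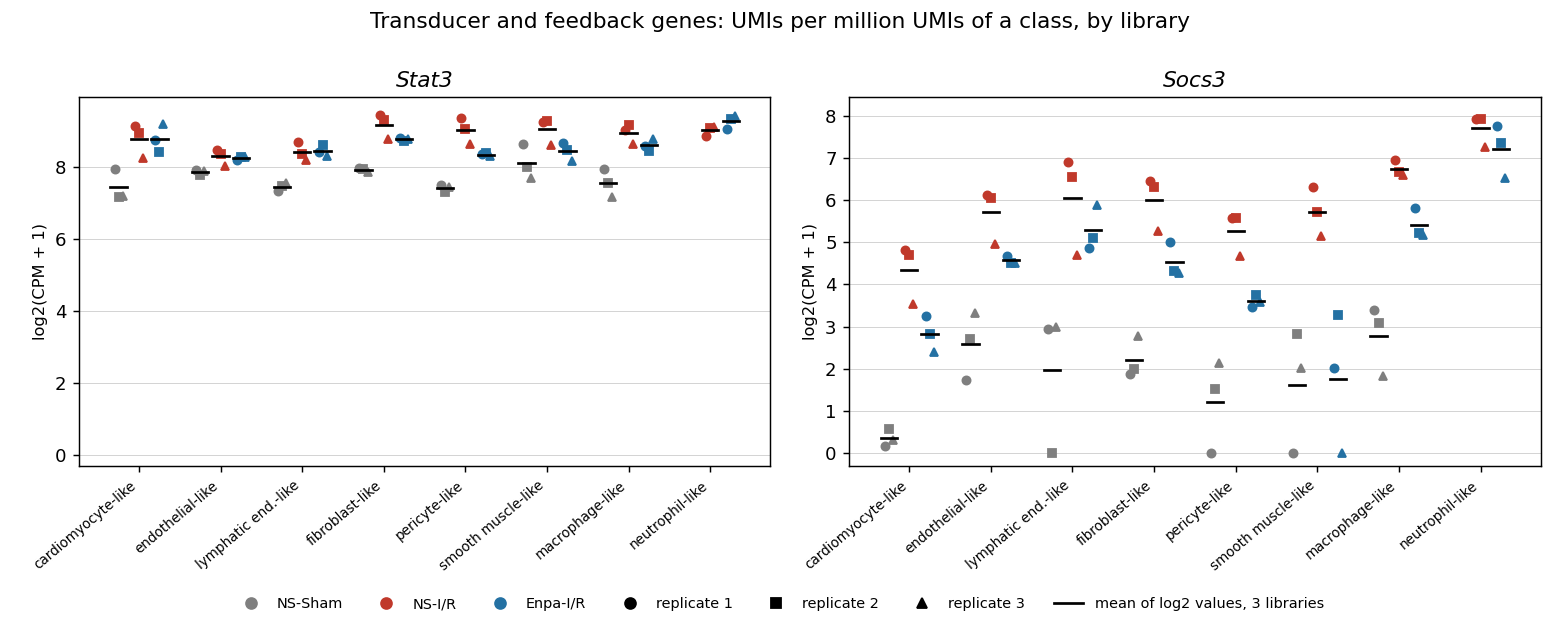
Levels of Stat3 and Socs3 as log2(CPM + 1), by class and library, drawn as for the ligands. Socs3 in cardiomyocyte-like nuclei lies below 1 CPM in all sham libraries and between 10.6 and 27.0 CPM in NS-I/R, with the enpatoran libraries between.

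The other genes of the pathway were read from lists, given here by their counts. Of 24 textbook targets of STAT3, 23 were tested in cardiomyocyte-like nuclei, where 20 were higher after I/R and 0 lower (median log2 fold change 2.15, all genes 0.01; 23.7% of all genes called higher). In fibroblast-like nuclei 19 of 23 were higher and 0 lower (median 2.29, background 23.3%), in endothelial-like 20 of 23 (median 1.79, 17.6%), in macrophage-like 18 of 23 (median 2.00, 17.9%) and in pericyte-like 17 of 18 (median 2.58, 12.2%), with 0 lower in each. Lymphatic endothelial-like nuclei had 9 of 13 (6.25%) and smooth muscle-like nuclei 7 of 15 higher (2.75%), and 0 lower. Many of these genes also answer to other signals of injury. Lcn2, which encodes the iron-binding lipocalin 2, rose in cardiomyocyte-like nuclei from 0.239 ± 0.116 to 47.2 ± 25.1 CPM (7.72 ± 0.62, adjusted p = 2.09e-05), and Lcn2 is also a neutrophil granule gene. Serpina3n, a secreted protease inhibitor, rose in fibroblast-like nuclei from 6.47 ± 0.341 to 231 ± 65.0 CPM (5.01 ± 0.33, adjusted p = 9.64e-07), and Timp1, an inhibitor of matrix metalloproteases, from 5.29 ± 2.60 to 164 ± 63.8 CPM (4.73 ± 0.38, adjusted p = 3.3e-06).

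With enpatoran 6 of 23 targets were lower in endothelial-like nuclei (median -0.54, background 3.46%), 6 of 23 in macrophage-like (median -0.46, 3.31%), 5 of 23 in fibroblast-like (median -0.56, 5.94%), 4 of 18 in pericyte-like (median -0.54, 2.83%) and 3 of 23 in cardiomyocyte-like nuclei (median -0.57, 11.3%), against medians of all genes between -0.01 and 0.01. The count in cardiomyocyte-like nuclei was near the share of all genes. In lymphatic endothelial-like nuclei edgeR called 0 of 13 targets (median -0.48; 4 had an unadjusted p under 0.05, and DESeq2's Wald test called 0 of 8). In smooth muscle-like nuclei it called 0 of 15 (median -0.52; 6 unadjusted, 0 of 8 by DESeq2). In neutrophil-like nuclei it called 0 of 21, with a median above 0 (0.12; 7 unadjusted, 1 of 18 by DESeq2). No target was called higher by edgeR in these 8 classes. Lcn2 was lower in endothelial-like nuclei (97.8 ± 48.2 against 20.5 ± 11.0 CPM; -2.17 ± 0.43, adjusted p = 0.0194). Myc, a growth regulator, was lower there (-1.52 ± 0.27, adjusted p = 0.0110) and in macrophage-like nuclei (-1.29 ± 0.29, adjusted p = 0.0156). Pim1, a survival kinase, was lower in pericyte-like nuclei (34.9 ± 6.104 against 9.72 ± 2.05 CPM; -1.71 ± 0.36, adjusted p = 0.0172), and Nfil3, a transcription factor, in macrophage-like nuclei (-1.55 ± 0.27, adjusted p = 0.00439). Timp1 in fibroblast-like nuclei was 172 ± 53.1 CPM with enpatoran, within the spread of NS-I/R. Over the 7 classes the enpatoran contrast called 24 targets, 53 once NS-I/R replicate 3 was left out, 5 and 7 with NS-I/R replicates 1 and 2 left out, and 9, 7 and 5 without enpatoran replicates 1, 2 and 3. Of the calls named here, Nfil3 held in all 9 such fits. Lcn2 was lost without NS-I/R replicate 1 or 2 or enpatoran replicate 2 or 3, Myc in both classes without NS-I/R replicate 1 or enpatoran replicate 2 or 3, and Pim1 without NS-I/R replicate 1 or 2 or any enpatoran library.

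Of 8 other ligands of the family, Clcf1, which encodes a ligand of the CNTF receptor, was called higher after I/R in each of the 4 classes where it was tested. In cardiomyocyte-like nuclei it went from 1.72 ± 0.367 CPM in sham to 41.5 ± 21.8 in NS-I/R (4.54 ± 0.46, adjusted p = 6.67e-05) and was 8.68 ± 1.17 with enpatoran (-2.23 ± 0.39, adjusted p = 0.0110). It was also lower with enpatoran in fibroblast-like (-1.14 ± 0.25, adjusted p = 0.0218) and macrophage-like nuclei (-1.34 ± 0.34, adjusted p = 0.0273). The cardiomyocyte-like enpatoran call was lost without enpatoran replicate 1, the fibroblast-like one without NS-I/R replicate 1 or 2 or any enpatoran library, and the macrophage-like one without NS-I/R replicate 1 or 2 or enpatoran replicate 2 or 3. Of 4 other receptors tested in fibroblast-like nuclei 2 fell (23.3% of all genes called lower), Il11ra1 among them (-0.74 ± 0.14, edgeR adjusted p = 0.00131). With enpatoran 1 of the 4 was called higher in that class (3.8% of all genes). In macrophage-like nuclei 1 of 2 tested was higher after I/R (17.9% of all genes). It was Il31ra (0.92 ± 0.26, edgeR adjusted p = 0.0117), a call lost without NS-Sham replicate 2.

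Of 8 genes of feedback and receptor shedding, 4 of 7 tested rose (background 17.9%) and 2 fell (16.9%) in macrophage-like nuclei, and 2 of 7 were lower with enpatoran (3.31%). After I/R 1 of 7 rose in cardiomyocyte-like nuclei (23.7%), 3 of 7 in endothelial-like (17.6%), 2 of 6 in pericyte-like (12.2%), 2 of 5 in lymphatic endothelial-like (6.25%) and 1 of 5 in smooth muscle-like nuclei (2.75%), with 0 lower, and in fibroblast-like nuclei 2 of 8 rose and 3 fell (23.3% each). With enpatoran 1 of 7 was lower in cardiomyocyte-like (11.3%) and 1 of 6 in pericyte-like nuclei (2.83%), and edgeR called none in the other 5 classes tested, neutrophil-like included, where 1 to 4 genes per class had an unadjusted p under 0.05 and DESeq2's Wald test called 1, in neutrophil-like nuclei. In macrophage-like nuclei Socs2, a suppressor of cytokine signalling, went from 10.3 ± 2.47 CPM in sham to 159.5 ± 113 in NS-I/R (3.90 ± 0.64, edgeR adjusted p = 0.000264). It was 22.5 ± 3.02 CPM with enpatoran (-2.80 ± 0.51, edgeR adjusted p = 0.00554). Cish, of the same family, showed 4.16 ± 4.75, 69.2 ± 15.6 and 20.5 ± 6.27 CPM in macrophage-like nuclei (3.55 ± 0.45, edgeR adjusted p = 2.7e-05 after I/R, -1.76 ± 0.33, edgeR adjusted p = 0.00636 with enpatoran). The enpatoran call of Socs2 held in all 9 fits that left out a library, and that of Cish was lost without enpatoran replicate 2. Of 10 kinases and transducers 5 rose and 2 fell in macrophage-like nuclei (17.9% and 16.9% of all genes), 4 rose and 4 fell in endothelial-like (17.6% and 16.3%), 3 rose and 4 fell in fibroblast-like (23.3% each), 2 rose and 3 fell in cardiomyocyte-like (23.7% and 21.7%) and 2 rose and 1 fell in pericyte-like nuclei (12.2% and 11.7%). In lymphatic endothelial-like (8 tested; 7.63% of all genes lower) and smooth muscle-like nuclei (3.75% lower) edgeR called 0 higher and 1 lower. Several of these counts lie near the share of all genes, so no direction is read from the list. Jak2, a receptor-bound kinase, rose in macrophage-like (1.23 ± 0.16, edgeR adjusted p = 4.08e-05) and endothelial-like nuclei (1.16 ± 0.15, edgeR adjusted p = 0.000140). The adaptor Gab1 fell in cardiomyocyte-like nuclei (-1.17 ± 0.15, edgeR adjusted p = 0.000239).

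Genes with a like pattern were sought over 23 means of class and group (8 classes) among 12415 genes, by Pearson's r of log2(CPM + 10). These are descriptions over points that share libraries. Il6 was most like Cxcl1 (r = 0.875), a neutrophil-attracting chemokine, then Odc1 (0.863) and Edc4 (0.857). Osm was most like Ccl3 (0.991), a leukocyte chemokine, then Clec4d (0.970) and Adam8 (0.967). Its means were 10.3 to 23.7 CPM in macrophage- and neutrophil-like nuclei of the I/R groups and at most 1.62 CPM elsewhere. These values of r for Osm thus rest on few points. For Lif the nearest were Slc6a12 (0.924), Cxcl1 (0.923) and Ptx3 (0.908), and for Socs3 they were Sbno2 (0.955), Pgs1 (0.939) and Klhdc4 (0.929). Pgs1 is a neighbour of Socs3 on chromosome 11, with 16244 bases between them on opposite strands (GRCm38, GENCODE M21). Il11 stayed under 10 CPM in every mean of class and group, so its nearest genes, Snhg3 (0.816), Timp1 (0.813) and Cxcl5 (0.808), rest on few UMIs.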

How the data were processed

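Nuclei of heart tissue were profiled in 9 libraries, 3 per group. The authors deposited raw counts (UMIs per gene and barcode) in 1 matrix per library, made with Cell Ranger 8.0.0 per the file headers; the submitters' processing notes name Cell Ranger 6.1.1, Seurat, GRCh38 and GRCm39. Barcodes with at least 500 genes and at most 5% mitochondrial UMIs were kept, and doublets were removed by Scrublet score at 0.8% per 1000 barcodes (scanpy 1.11.5). Kept nuclei were clustered (Leiden, resolution 1) without the pathway genes and named from 94 markers of 14 cell types. UMIs were summed per library and class, with at least 25 nuclei each, and tested with edgeR 4.0.16 (quasi-likelihood, TMM, filterByExpr) over the 9 libraries; differences between classes were tested with limma 3.58.1 on log2 CPM within libraries. Both adjust over all genes of a class. Alternatives included DESeq2 1.42.0, no filter, other nucleus filters and leaving out each library. The edgeR test was checked on simulated counts for enpatoran against NS-I/R, where it recovered 47% of 200 changes of 1 on the log2 scale in pericyte-like (9355 genes), 57% in fibroblast-like (13433) and 48% in macrophage-like nuclei (10419), so a gene not called there may have changed by that much. The 10 genes, the 5 pathway lists and the tests were chosen with earlier results of these data known. List genes were named where they passed the test in a class and had a mean of at least 10 CPM over the libraries of the fit, at most 3 per list, class and contrast by size of change, and a few of these are printed. Genes matched by ID to GENCODE M21 for position (32158 of 32285). Intervals are 95% exact binomial, and the floor for 0 UMIs is 3 counts over a group.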

Additional observations from a re-analysis of the deposited data

Results flagged for a closer look

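The following differences between classes in the change from NS-Sham to NS-I/R passed limma's test on within-library differences of log2 CPM, with 3 libraries in each group. The rise in cardiomyocyte-like nuclei exceeded that in fibroblast-like nuclei by 3.20 for Osmr (adjusted p = 0.000370), by 2.53 for Il6ra (adjusted p = 0.00177) and by 1.65 for Socs3 (adjusted p = 0.00909). It exceeded that in endothelial-like nuclei by 3.72 for Osmr (adjusted p = 0.000394), by 2.32 for Socs3 (adjusted p = 0.00313), by 1.82 for Il6ra (adjusted p = 0.00819) and by 0.99 for Stat3 (adjusted p = 0.0357). Osmr rose more in pericyte-like than in fibroblast-like nuclei, by 0.75 (adjusted p = 0.0418), and Il6st more in macrophage-like than in fibroblast-like nuclei, by 0.93 (adjusted p = 0.0246). The 6 differences of Osmr, Il6ra and Socs3 in cardiomyocyte-like nuclei were called in each of 9 fits that left out 1 library, and the other 3 were lost in 4 to 8 of those fits. In cardiomyocyte-like nuclei the summed neutrophil markers were 0.416 to 2.22 CPM in sham and 24.4 to 69.8 CPM in NS-I/R, in endothelial-like nuclei 1.16 to 1.35 and 94.6 to 221 CPM, and in macrophage-like nuclei 61.5 to 89.5 and 298 to 770 CPM; their part in these differences was not tested.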

How the results depend on the processing

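For NS-I/R against NS-Sham, the number of calls by class (39) stayed within 1.5 times under every alternative, as did the number over all nuclei (10), although 9 of the 39 calls were lost in 1 or more fits without 1 library. For enpatoran the 16 calls by class became 26 with no low-count filter, 8 with the 6 libraries of the contrast, and 5 to 35 when 1 library was left out. The 6 calls over all nuclei became 1 to 7 without 1 library, and the 1 call in neutrophil-like nuclei 0 to 2, with 0 at 1000 genes per nucleus and 0 at Leiden resolution 2. Among the lists with enpatoran, the 24 STAT3 targets called became 50 with no filter, 12 with 6 libraries and 5 to 53 without 1 library. The 7 kinases became 15, 1 and 0 to 25 in that order. The 4 feedback genes became 2 with 6 libraries, 2 at a mitochondrial limit of 20% and 1 to 14 without 1 library. The 3 other ligands became 5 with no filter and 1 to 5 without 1 library. The 1 other receptor became 3 with no filter, 0 with 6 libraries, 0 at the 20% limit and 0 to 3 without 1 library; for NS-I/R against NS-Sham the 3 other receptors became 5 at the 20% limit and 2 to 5 without 1 library. The difference of Il11 in fibroblast-like nuclei with enpatoran ranged from -0.44 (without NS-I/R replicate 2) to 2.59 (without NS-I/R replicate 3) when 1 library was left out, with -0.30 without NS-I/R replicate 1 and -0.20 without the third enpatoran library, and was -0.027 at the 20% limit; the cause was not tested. Same-numbered libraries of different groups correlated at -0.141 to 0.0535 in their deviations from group means, and differently numbered ones at -0.0856 to 0.136. With 3 libraries per group these values cannot decide whether the numbers pair samples. With the replicate block 38 and 13 members were called by class in the 2 contrasts, 10 and 6 over all nuclei, and 0 other receptors with enpatoran. Osm, Lif and Il11 failed the low-count filter in nearly every class, so that no test was made there; whether depth set this was not tested.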

Other observations

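One cluster of 407 nuclei stayed unnamed, led by the heat shock genes Hspa1a and Hspa1b. It held 400 nuclei in NS-I/R, 277, 91 and 32 by library, 7 in Enpa-I/R and 0 in NS-Sham. In NS-I/R it held 44 Il6 UMIs, at 48.2 ± 10.2 CPM, with Socs3 at 158 ± 45.9, Stat3 at 725 ± 130, Osmr at 406 ± 140 and Il6st at 111 ± 17.4 CPM (SD, n = 3). The median depth of its 407 nuclei was 1675.0 UMIs, against 1116.5 in neutrophil-like and 2168.5 in pericyte-like nuclei. In Schwann-like nuclei 84 Il6ra UMIs were counted in NS-I/R, of which 74 came from NS-I/R replicate 2.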
